A study of Homo sapiens with 6 samples.

Results

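The genes described here are 37 human autophagy genes, chosen by name from a list that runs from the starting kinase complex to cargo receptors and the lysosome, out of 58735 genes in the deposited table. RNA-seq libraries were made from poly-A enriched RNA of the human malignant melanoma cell line A375. In 3 libraries the cells had been treated with PAL, which is Ringer's lactate that was exposed to a low-temperature plasma, and 3 control libraries came from A375 cells with no PAL. The column names of the PAL libraries carry the number 64, and the labels explain neither this number nor the dose, the exposure time or the solution given to control cells. The labels do not say whether the replicates came from separate cultures, so the p-values reflect library-to-library spread, and that spread may be technical.

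Autophagy is the process by which a cell encloses part of its own content in a double membrane, the autophagosome, and delivers it to the lysosome for breakdown. A kinase complex around ULK1 starts it, a lipid kinase complex around BECN1 and PIK3C3 marks the site, and conjugation enzymes attach small proteins of the ATG8 family to the growing membrane. Cargo receptors such as SQSTM1 bind both the cargo and the ATG8 proteins, and are themselves broken down on the way. RNA levels measure neither the number of autophagosomes nor the flow of cargo through them.

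The reads assigned to genes numbered between 15064971 and 17711389 per library. Levels are FPKM, reads per length of gene and per library size, and means are given ± SD over 3 libraries. Tests used limma on log2(FPKM + 1) with Benjamini-Hochberg adjustment over 12258 genes, and log2 differences are PAL minus control on that scale, which understates the change of low genes. A gene is called at an adjusted p below 0.05. Of 12 melanocyte lineage markers, SOX10 stood at 108 ± 0.944 FPKM in PAL and 88.1 ± 1.68 FPKM in control, while the pigment gene PMEL averaged 0.370 FPKM in PAL and 0.357 FPKM in control, and TYR was listed at 0 in all libraries. Of the 7 tested, SOX10 was called higher in PAL, and S100B and ERBB3 lower. The summed FPKM of the list was 138 to 140 in PAL and 122 to 125 in control, most of it SOX10. Of the 7 tested markers, only 2 had a log2 difference above 0, and the median was -0.06. That of immune markers was 3.56 to 4.59 in PAL and 4.42 to 5.23 in control, with CD3E at 0, and that of fibroblast markers 3.94 to 5.27 in PAL and 5.0 to 5.39 in control. Keratinocyte markers summed to 30.8 to 33.4 in PAL and 31.5 to 36.4 in control, most of it KRT10, and endothelial markers to 0.836 to 0.921 in PAL and 0.735 to 0.963 in control. Of the 2 keratinocyte markers tested, KRT14 was called lower, at 2.87 ± 0.321 FPKM in PAL and 3.8 ± 0.424 FPKM in control (adjusted p = 0.0422), and KRT10 was not called. The part of these differences in the results was not tested, and in bulk RNA fewer cells of a kind and less RNA per cell cannot be told apart. Inducible stress genes differed far more than any autophagy gene did, and they stood higher in control, the cells with no PAL. HSPA6, an inducible HSP70 chaperone, had 20.7, 27.4 and 73.2 FPKM in PAL replicates 1 to 3, against 1999, 1960 and 1685 FPKM in control replicates 1 to 3. For HSPA6 the third library of each group lay nearest the other group, and counts were also made without both. For HSPA1A, another inducible HSP70, this held for PAL replicate 3 but not for control replicate 3. HSPA1A averaged 65.3 ± 26.1 FPKM in PAL and 1386 ± 25.4 FPKM in control. The stress gene FOSB averaged 2.31 ± 1.33 FPKM in PAL and 64.7 ± 6.96 FPKM in control. Why these stress genes were high in the control libraries was not tested, and the falls in PAL given below are relative to those libraries.

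Of the 37 genes, 34 passed the filter of at least 1 FPKM in at least 3 libraries. None differed by 2-fold or more on the log2 scale. Of the 8 calls, 7 were in the ATG8 proteins, the ULK complex and the cargo receptors, which had 4, 4 and 5 tested genes. These groups were picked out after the calls were seen. MAP1LC3B, GABARAPL1, ATG101, RB1CC1, NBR1, OPTN and TAX1BP1 were called lower in PAL, and ATG10 was called higher. Of all tested genes 14.5% were called lower and 11.4% higher, and of the 34 autophagy genes 20.6% were called lower and 2.94% higher. In either direction the calls came to 23.5% of the autophagy genes and 25.9% of all genes, so their number was near the background. The median log2 difference of the 34 genes was -0.079, against 0.0043 over all tested genes, and 26 of the 34, or 76.5%, were below 0, against 48.9% of all tested genes, though the sign of 6, 3 and 7 genes not called turned after scaling to TPM, quantile normalization and plain read totals. PAL and control libraries did not overlap in 16 of the 34 genes, or 47.1%, against 44.9% of all tested genes. The PAL libraries were the lower ones in 14 genes, or 41.2%, against 23.6% of all tested genes, and the higher ones in 2, or 5.88%, against 21.4%. Scaling mattered for the direction: higher calls made up 44.0% of all calls as deposited, 69.9% after scaling to TPM, 59.2% after quantile normalization and 73.3% with plain read totals. These scalings moved the median of all genes to 0.06, 0.03 and 0.08, and under each of them 4 autophagy genes were called higher, with 6, 7 and 6 called lower.

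**Figure D1:**
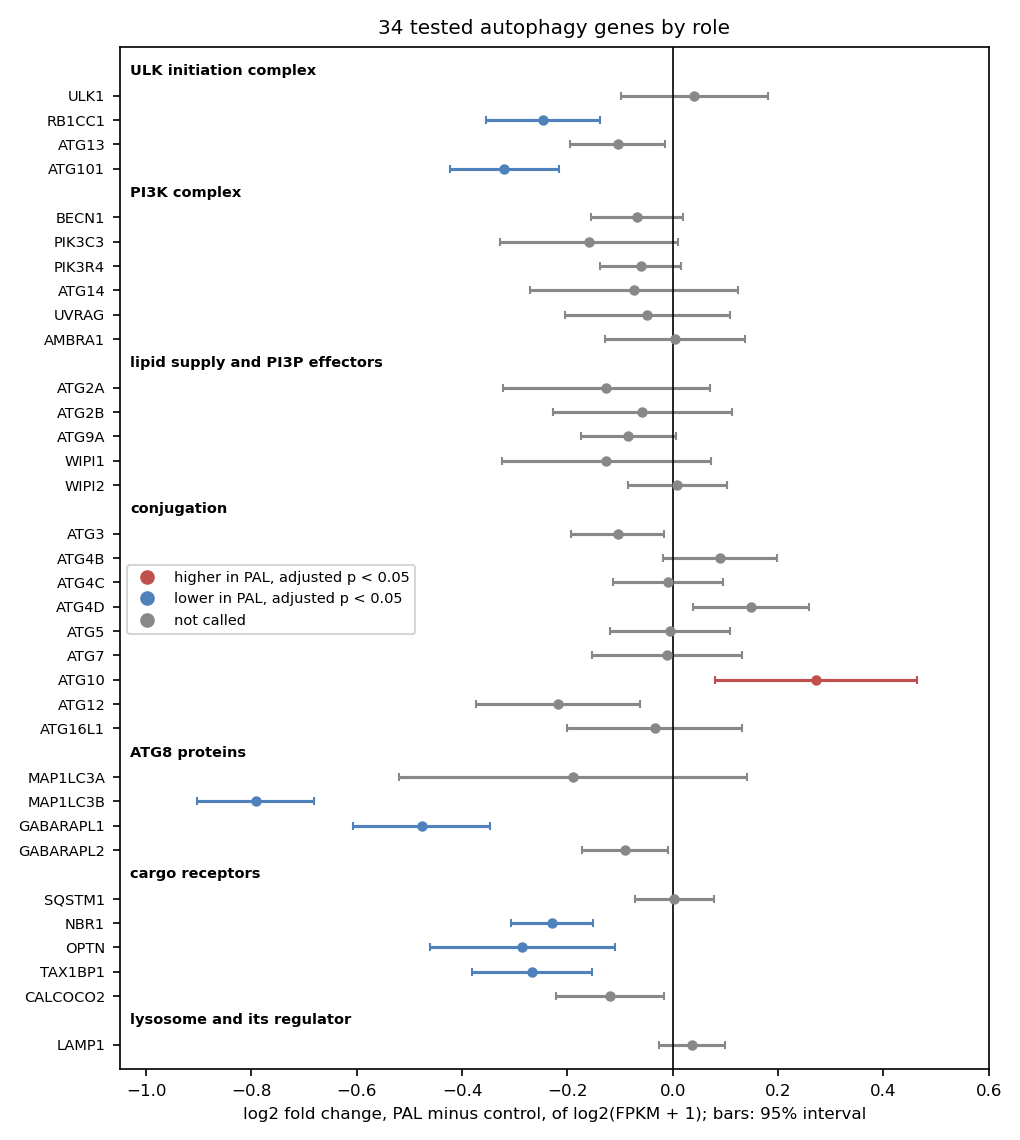
Log2 difference, PAL minus control, of log2(FPKM + 1) for the 34 tested autophagy genes by role, with the 95% interval from limma as bars. The falls of MAP1LC3B (-0.79) and GABARAPL1 (-0.48) lie apart from the rest, and the 6 genes of the PI3K complex stay between -0.16 and 0.0044.

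The promoters of the genes with the 2 largest falls, and that of LAMP1, which was not called, are shown because they hold sequence elements of stress and lysosome regulators. Sequences are from RefSeq on GRCh38.p14 and run from 250 bases before to 50 bases after a transcription start. In MAP1LC3B (chr16:87392086-87392385, plus strand) the capitals mark TGACNNNGC, the core of the antioxidant response element that NRF2 binds, which begins 46 bases before the start. In GABARAPL1 (chr12:10212627-10212926, plus strand) they mark TGACGTCA, the cyclic AMP response element, which begins 30 bases before the start. In LAMP1 (chr13:113296989-113297288, plus strand) they mark 6 copies of the E-box CACGTG, 2 of which lie within TCACGTGA, the core of the lysosomal element that TFEB binds. The first E-box of LAMP1 overlaps a TGACNNNGC read on the other strand.
MAP1LC3B: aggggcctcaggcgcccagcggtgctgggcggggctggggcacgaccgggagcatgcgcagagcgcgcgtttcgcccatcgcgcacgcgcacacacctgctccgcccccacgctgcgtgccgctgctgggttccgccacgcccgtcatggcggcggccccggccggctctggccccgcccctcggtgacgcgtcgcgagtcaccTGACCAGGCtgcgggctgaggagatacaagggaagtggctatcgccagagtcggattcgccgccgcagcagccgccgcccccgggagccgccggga
GABARAPL1: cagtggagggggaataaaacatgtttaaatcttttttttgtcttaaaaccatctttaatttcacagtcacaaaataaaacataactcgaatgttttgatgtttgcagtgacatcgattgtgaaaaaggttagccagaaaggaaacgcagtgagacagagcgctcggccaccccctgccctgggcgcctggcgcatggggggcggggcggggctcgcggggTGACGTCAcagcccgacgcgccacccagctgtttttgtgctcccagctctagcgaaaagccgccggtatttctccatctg
LAMP1: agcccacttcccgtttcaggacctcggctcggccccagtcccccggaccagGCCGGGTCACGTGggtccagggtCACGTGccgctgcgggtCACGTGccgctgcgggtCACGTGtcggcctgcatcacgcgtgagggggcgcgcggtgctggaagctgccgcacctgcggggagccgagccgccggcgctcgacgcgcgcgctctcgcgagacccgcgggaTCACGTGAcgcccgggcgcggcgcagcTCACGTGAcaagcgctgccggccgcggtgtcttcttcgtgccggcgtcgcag

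Promoters were found for 33 of the 37 genes, 43 promoters in all, and each element was searched on both strands. RB1CC1, ATG4D, MAP1LC3A and UVRAG are outside these counts. TGACNNNGC was present in 9.30% of the 43 promoters, those of ATG101, CALCOCO2, LAMP1 and MAP1LC3B, against 13.3% of 34796 promoters in the table. TGACGTCA was present in 2.33% against 1.84%, CACGTG in 6.98% against 7.2%, and TCACGTGA in 4.65%, those of ATG3 and LAMP1, against 0.983%. CACGTG is contained in TCACGTGA, so these counts overlap. The heat shock element cores GAANNTTC and TTCNNGAA were each present in 4.65%, against 6.79% and 7.76% of all promoters. TGATGNAA, a core that ATF4 binds with C/EBP proteins, was in none of the 43 windows and in 3.63% of all. A match is a description of the letters and does not show binding.

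The ATG8 proteins are the membrane-bound tags of the autophagosome, and MAP1LC3B, known as LC3B, is the usual marker of that membrane. MAP1LC3B (chr16:87383995-87404779) had 16.3, 15.9 and 17.7 FPKM in PAL, against 28.5, 29.3 and 30.7 FPKM in control. Every PAL library was lower than every control library by a wide gap. The means were 16.6 ± 0.911 FPKM in PAL and 29.5 ± 1.10 FPKM in control, a ratio of 0.563, and the log2 difference was -0.79 ± 0.05 (SE), adjusted p = 7.83e-05. MAP1LC3B stayed between -0.83 and -0.71 under all 18 alternatives. GABARAPL1 (chr12:10212458-10223130), a member of the GABARAP branch that acts in later steps of the autophagosome, had 6.47, 6.07 and 5.98 FPKM in PAL, against 8.50, 8.81 and 9.65 FPKM in control. It fell by 0.48 on the log2 scale (SE 0.06, adjusted p = 0.00158), and its groups did not overlap either. These 2 of 4 tested ATG8 genes are 50% called lower in a small group, against 14.5% of all tested genes.

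GABARAPL2, the other abundant member of the GABARAP branch, had 19.9, 20.1 and 19.5 FPKM in PAL, against 22.0, 20.7 and 20.8 FPKM in control. Its libraries did not overlap, but the log2 difference of -0.09 was not called (adjusted p = 0.0980). MAP1LC3A, a close relative of MAP1LC3B, had 2.78, 1.56 and 1.97 FPKM in PAL and 2.29, 2.45 and 2.75 FPKM in control. These groups overlapped, and the 95% interval of its log2 difference ran from -0.52 to 0.14, so a change of either kind could not be resolved. GABARAP, the founding member of that branch, stood at 1.22, 0.767 and 0.958 FPKM in PAL and 1.03, 0.923 and 0.798 FPKM in control, from 28 to 51 reads per library, and was not tested. Other genes of the GENCODE annotation share 55.7% of its exon bases, and the labels do not say how reads in shared bases were counted.

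The summed FPKM of the 5 ATG8 genes was 46.7, 44.4 and 46.0 in PAL, against 62.4, 62.2 and 64.7 in control. All PAL sums were below all control sums. MAP1LC3B made up 36.4 ± 1.75% of the sum in PAL and 46.8 ± 0.939% in control, and GABARAPL2 43.4 ± 1.62% in PAL and 33.6 ± 1.62% in control. As counted, GABARAPL2 was therefore the most abundant ATG8 transcript in every PAL library, and MAP1LC3B in every control library. GABARAP, with 55.7% of its exon bases shared with other genes, may be undercounted, so the sum, the shares and this order are uncertain to that extent. GABARAPL1 held 13.5 ± 0.455% in PAL and 14.2 ± 0.649% in control. These shares were not tested.

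**Figure D2:**
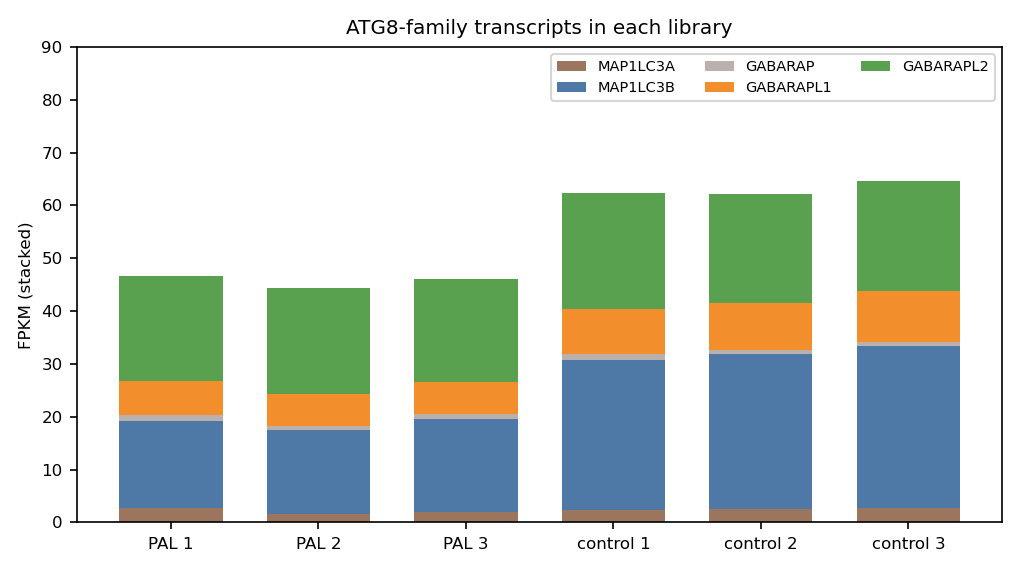
FPKM of the 5 ATG8 genes stacked by library, PAL libraries left of control libraries. The PAL stacks reach 44.4 to 46.7 FPKM and the control stacks 62.2 to 64.7 FPKM, with most of the gap in MAP1LC3B.

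MAP1LC3B2, a near-identical copy of MAP1LC3B on chromosome 12, had 0.80, 0.949 and 0.983 FPKM in PAL and 2.50, 1.99 and 1.79 FPKM in control. It was called lower in PAL (log2 difference -0.69, adjusted p = 0.00412), but it passed the filter through its control libraries only. How reads were split between the copies is not given, so the values of both are uncertain to that extent, MAP1LC3B2 being the far smaller of them. MAP1LC3C, a more distant relative, averaged 1.06 FPKM in PAL and 1.78 FPKM in control and was not called (adjusted p = 0.10).

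Of the 5 genes of the ULK complex, which responds to nutrient and energy state, 4 were tested and 2 were called lower in PAL. With so few genes these are 50% of those tested, against 14.5% of all tested genes. ATG101 (chr12:52069246-52077494), the subunit that stabilises ATG13, had 29.8, 28.5 and 30.7 FPKM in PAL, against 36.5, 36.0 and 39.4 FPKM in control. The groups did not overlap, and it fell by 0.32 on the log2 scale (SE 0.04, adjusted p = 0.00322). An antisense gene, AC025259.1, shares 19.2% of the exon bases of ATG101 and averaged 9.01 FPKM in PAL and 9.78 FPKM in control. Since the use of strand in the counting is not given, reads from the 2 strands cannot be told apart there. RB1CC1 (chromosome 8, 52622456 to 52745843), known as FIP200, the scaffold of the complex, had 7.41, 7.10 and 7.81 FPKM in PAL, against 9.11, 8.68 and 9.22 FPKM in control. It too showed no overlap and fell by 0.25 on the log2 scale (SE 0.05, adjusted p = 0.00994).

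The kinase ULK1 itself had 3.54, 3.06 and 3.16 FPKM in PAL and 3.12, 3.17 and 3.09 FPKM in control, with overlapping groups and an adjusted p of 0.642. ATG13, the adaptor that links the kinase to the scaffold, had 13.3, 12.9 and 12.8 FPKM in PAL, against 13.5, 14.5 and 14.04 FPKM in control. Its groups lay just apart, and it was not called (log2 difference -0.10, adjusted p = 0.0841). ULK2, the second kinase, had only 26 to 45 reads per library, or 0.177 to 0.243 FPKM in PAL and 0.177 to 0.289 FPKM in control, and was not tested. The complex thus had its abundant subunit ATG101 and its scaffold lower in PAL, with no difference resolved in the kinase.

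**Figure D3:**
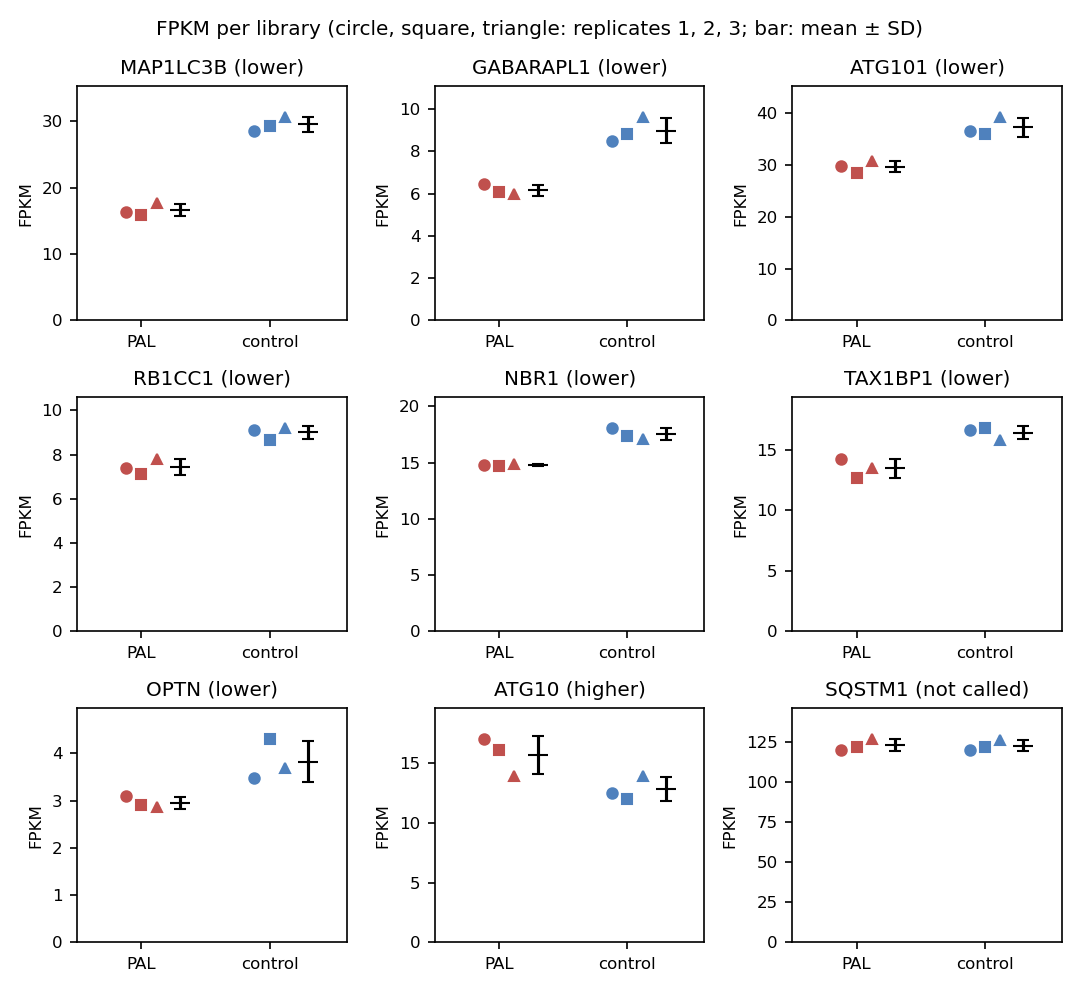
FPKM of autophagy genes in each library, PAL left of control, with the mean ± SD beside each group. MAP1LC3B shows the widest gap between groups (15.9 to 17.7 FPKM in PAL, 28.5 to 30.7 in control), and SQSTM1 nearly the same values in both.

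None of the 6 genes of the PI3K complex, which makes the lipid PI3P on the forming membrane, was called, although voom on read counts called PIK3C3 lower. The group is small, and 25.9% of all tested genes were called. BECN1, its regulatory core, averaged 13.5 ± 0.329 FPKM in PAL and 14.1 ± 0.455 FPKM in control, and the 95% interval of its log2 difference ran from -0.16 to 0.02. CNTD1 and PSME3, on the opposite strand, share 17.1% of the exon bases of BECN1. PSME3 averaged 74.0 FPKM in PAL and 75.0 FPKM in control, and the part of both in the BECN1 values was not tested. PIK3C3, the lipid kinase, averaged 2.41 ± 0.136 FPKM in PAL and 2.81 ± 0.270 FPKM in control (adjusted p = 0.146), and PIK3R4, the kinase's membrane anchor, 11.9 ± 0.145 FPKM in PAL and 12.5 ± 0.264 FPKM in control (adjusted p = 0.212). The PIK3R4 libraries were the only ones of the 6 that did not overlap. In so small a group that is 16.7%, against 44.9% of all tested genes. ATG14, which directs the complex to the autophagosome, UVRAG, which directs it to endosomes, and AMBRA1, a BECN1 partner, had adjusted p-values of 0.560, 0.630 and 0.963.

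None of the 5 genes for lipid supply and PI3P reading was called, in a small group, against 25.9% of all tested genes. ATG2A and ATG2B carry lipids to the membrane, ATG9A scrambles them and arrives on vesicles, and WIPI1 and WIPI2 bind PI3P. ATG9A averaged 6.66 ± 0.183 FPKM in PAL and 7.12 ± 0.0501 FPKM in control, without overlap (log2 difference -0.08, adjusted p = 0.148). WIPI2 averaged 11.3 ± 0.159 FPKM in PAL and 11.2 ± 0.466 FPKM in control. The remaining log2 differences were -0.13 for ATG2A, -0.06 for ATG2B and -0.13 for WIPI1, with libraries that overlapped.

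Of the 9 conjugation genes, which process ATG8 proteins and join them to the membrane, 1 was called. That is 11.1%, against 25.9% of all tested genes. ATG10 (chr5:81972025-82276857), the enzyme that joins ATG12 to ATG5, had 17.1, 16.1 and 13.98 FPKM in PAL, against 12.5, 12.0 and 13.94 FPKM in control. It rose by 0.27 on the log2 scale (SE 0.08, adjusted p = 0.0474), and the third libraries of the groups all but touched. Its call depended on single libraries: it was kept in 11 of 18 alternatives, with adjusted p from 0.00490 to 0.136. It was lost without PAL replicate 1, PAL replicate 2, control replicate 1 or control replicate 2. RPS23, a ribosomal protein gene on the opposite strand at 227 FPKM in PAL and 223 FPKM in control, shares 6.86% of the exon bases of ATG10.

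ATG12, the ubiquitin-like partner of ATG5, had 7.19, 6.63 and 6.69 FPKM in PAL, against 7.73, 7.64 and 8.99 FPKM in control. ATG4D, a protease that trims ATG8 proteins, had 16.4, 16.9 and 16.4 FPKM in PAL, against 14.01, 14.7 and 15.8 FPKM in control. Neither showed an overlap, and both missed the threshold narrowly, with adjusted p-values of 0.0507 and 0.0562. ATG4D was called higher in 7 of 18 alternatives, among them all 3 other scalings, and KRI1, a gene on the opposite strand, shares 15.0% of its exon bases. KRI1 had 22.5, 22.7 and 23.4 FPKM in PAL, against 20.4, 19.8 and 18.3 FPKM in control, so its PAL libraries were also the higher ones, and its part in the ATG4D values was not tested. ATG3, the enzyme that passes ATG8 proteins to the lipid, averaged 12.5 ± 0.248 FPKM in PAL and 13.5 ± 0.466 FPKM in control, without overlap (adjusted p = 0.0805). ATG5, ATG7, ATG16L1 and ATG4C, the remaining parts of the machinery with ATG4B, had log2 differences between -0.03 and -0.0050. ATG7, the enzyme that activates both ATG12 and the ATG8 proteins, averaged 3.98 ± 0.142 FPKM in PAL and 4.02 ± 0.316 FPKM in control, and ATG4B, the main ATG8 protease, 6.69 ± 0.261 FPKM in PAL and 6.23 ± 0.230 FPKM in control (adjusted p = 0.196). VGLL4, on the opposite strand, shares 18.1% of the exon bases of ATG7. It averaged 7.21 FPKM in PAL and 6.51 FPKM in control, and its part in the ATG7 values was not tested.

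Of the 5 cargo receptors, 3 were called lower, while the most abundant was not. In so small a group these are 60%, against 14.5% of all tested genes. SQSTM1 (chr5:179806398-179838078), known as p62, the receptor for ubiquitinated protein, had 119.9, 121.7 and 126.9 FPKM in PAL and 119.8, 121.6 and 126.2 FPKM in control. The groups covered the same range, and the log2 difference was 0.0031 with a 95% interval from -0.07 to 0.08. Quantile normalization alone gave it a call, higher in PAL (adjusted p = 0.0368). Genes on the opposite strand, MRNIP and MGAT4B, share 22.0% of the exon bases of SQSTM1. MRNIP averaged 5.24 FPKM in PAL and 3.91 FPKM in control, and MGAT4B 36.1 FPKM in PAL and 30.8 FPKM in control. The PAL libraries of both were the higher ones, and their part in the SQSTM1 values was not tested. NBR1 (chr17:43170481-43211689), which works with SQSTM1 on ubiquitinated cargo, had 14.7, 14.7 and 14.9 FPKM in PAL, against 18.1, 17.3 and 17.1 FPKM in control, and fell by 0.23 on the log2 scale (SE 0.03, adjusted p = 0.00399). TAX1BP1 (chr7:27739331-27844564), a receptor that also recruits the early machinery, had 14.2, 12.7 and 13.4 FPKM in PAL, against 16.6, 16.8 and 15.8 FPKM in control, and fell by 0.27 (SE 0.05, adjusted p = 0.00885). Both had all PAL libraries below all control libraries.

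OPTN (chr10:13099449-13138308), a receptor for damaged mitochondria and bacteria, had 3.09, 2.90 and 2.85 FPKM in PAL, against 3.47, 4.31 and 3.69 FPKM in control. It fell by 0.29 (SE 0.07, adjusted p = 0.0308), without overlap, but kept its call in 7 of the 17 alternatives that tested it, with adjusted p from 0.00747 to 0.114. Leaving out any library except control replicate 1 ended the call. CALCOCO2, known as NDP52, another receptor for bacteria and mitochondria, had 7.95, 8.07 and 8.70 FPKM in PAL, against 9.08, 8.87 and 9.13 FPKM in control, and was not called (log2 difference -0.12, adjusted p = 0.0871). The summed FPKM of the 5 receptors was 162 ± 3.95 in PAL and 169 ± 2.44 in control, most of it SQSTM1.

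LAMP1, the main glycoprotein of the lysosomal membrane, had 54.2, 55.9 and 53.3 FPKM in PAL and 52.8, 53.0 and 53.4 FPKM in control. The groups overlapped, and the 95% interval of the log2 difference ran from -0.03 to 0.10. TFEB, the transcription factor that drives lysosome and autophagy genes, stood at 0.125, 0.149 and 0.163 FPKM in PAL and 0.134, 0.179 and 0.172 FPKM in control. It had 12 to 17 reads per library and was not tested.

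**Figure D4:**
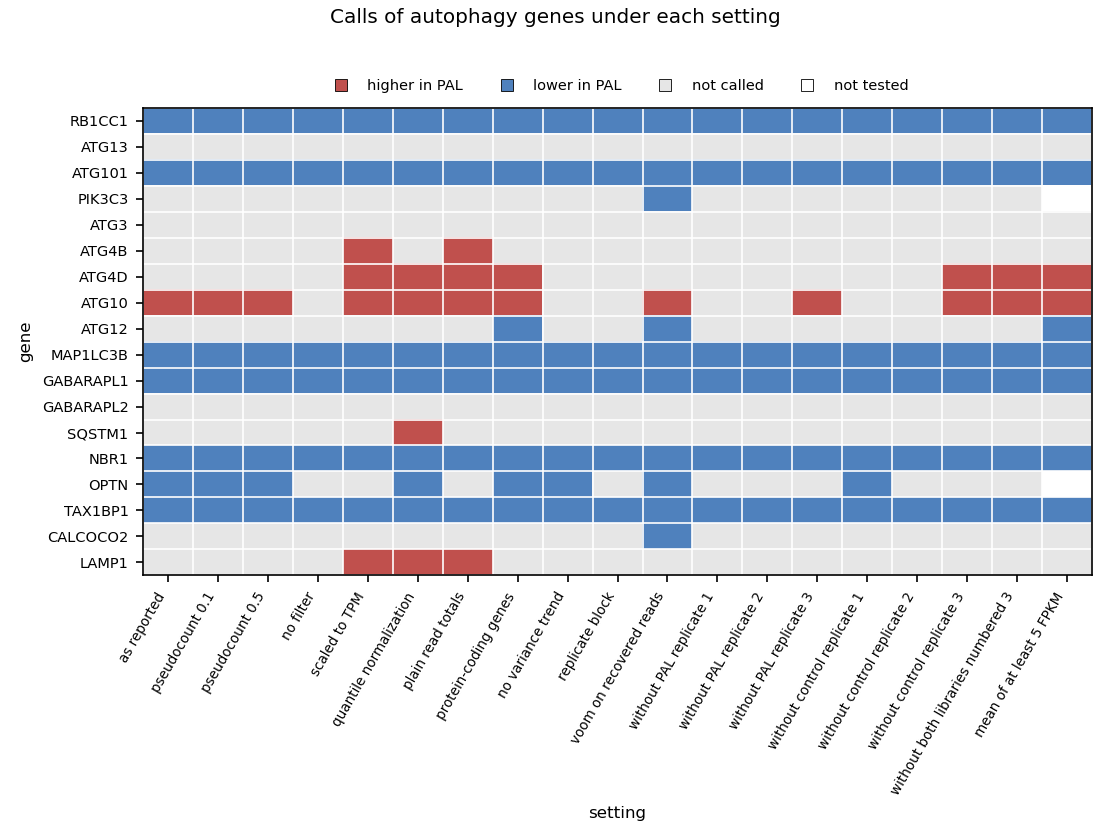
Calls of autophagy genes under each setting, red for higher in PAL, blue for lower, grey for not called and white for not tested. RB1CC1, ATG101, MAP1LC3B, GABARAPL1, NBR1 and TAX1BP1 are blue in all columns, while ATG10 keeps its call in 11 and OPTN in 7 of the alternatives.

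RB1CC1, ATG101, MAP1LC3B, GABARAPL1, NBR1 and TAX1BP1 were called lower in all 18 alternatives, which covered pseudocount, filter, scaling, variance model, read-level weights and each left-out library. In PAL, LAMP1 was called higher under the 3 other scalings, and ATG12 lower among protein-coding genes, with a mean of at least 5 FPKM and with voom. ATG4B was called higher with TPM and with plain totals (adjusted p = 0.0418 and 0.0329), and with voom PIK3C3 and CALCOCO2 were called lower (adjusted p = 0.0310 and 0.0426). Among the 26 genes not called, 15 had 95% intervals within 0.2 of 0 on the log2 scale, and 6 had an unadjusted p below 0.05.

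The wider pathway was covered by 5 further lists. Of 28 tested genes of the other core machinery, 5 were called lower in PAL and 0 higher, with a median log2 difference of -0.05. The 17.9% called lower lay near the 14.5% of all tested genes. Beside MAP1LC3B2, which passed the filter through its control libraries only, they were YKT6, a SNARE of autophagosome fusion, at 54.8 ± 2.27 FPKM in PAL and 63.4 ± 4.37 FPKM in control, and VPS11, a tethering subunit, at 7.68 ± 0.302 FPKM in PAL and 8.97 ± 0.438 FPKM in control. The other 2, the protease ATG4A and the PI3P reader WDR45B, lay outside the naming rule and were added after their values were seen. Among 21 tested selective receptors and regulators, 4 were higher and 1 lower, the median being -0.05. Called in either direction were 23.8%, near the 25.9% of all tested genes, with 19.0% higher against 11.4% and 4.76% lower against 14.5%. Higher were ATL3, an endoplasmic reticulum receptor (8.14 ± 0.283 FPKM in PAL, 6.69 ± 0.317 FPKM in control), KEAP1, the NRF2 inhibitor that SQSTM1 binds (31.8 ± 0.40 FPKM in PAL, 27.1 ± 0.415 FPKM in control), TOLLIP, a ubiquitin-binding adaptor (6.24 ± 0.271 FPKM in PAL, 5.38 ± 0.287 FPKM in control), and TEX264, another endoplasmic reticulum receptor, which lay outside the naming rule and was added after its value was seen. NCOA4, the ferritin receptor, was lower, at 32.8 ± 1.18 FPKM in PAL and 38.6 ± 0.430 FPKM in control.

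Of 34 tested genes of mTORC1 and AMPK control, 3 were higher and 1 lower in PAL, with a median of -0.0094. These 11.8% called compare with 25.9% of all tested genes. The fall was the largest of all the lists: SESN2, a leucine sensor that restrains mTORC1 and is induced by stress, had 4.90, 5.33 and 5.41 FPKM in PAL, against 14.9, 15.8 and 18.6 FPKM in control. All PAL libraries were lower, and the log2 difference was -1.48 ± 0.08 (SE, adjusted p = 5.3e-05). The higher genes differed far less, with log2 differences of 0.19 for MLST8, a subunit of mTORC1, 0.17 for STK11, the kinase LKB1, and 0.15 for LAMTOR1, a lysosomal anchor of mTORC1.

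Of 42 tested lysosome genes, 4 were higher and 8 lower in PAL, with a median of -0.03. The shares were 9.52% higher and 19.0% lower, near the 11.4% and 14.5% of all tested genes. NAGLU, an enzyme of heparan sulfate breakdown, averaged 7.70 ± 0.627 FPKM in PAL and 5.55 ± 0.250 FPKM in control, and CLCN7, a chloride transporter, and GUSB, a glucuronidase, rose by 0.23 and 0.16 on the log2 scale. NEU1, a sialidase, GLA, a galactosidase, and SCARB2, a membrane protein and enzyme receptor, fell by 0.24, 0.23 and 0.22.

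Of 12 tested transcriptional regulators, 1 was higher and 4 lower in PAL, with a median of -0.07. In so short a list these are 8.33% and 33.3%, against 11.4% and 14.5% of all tested genes. DDIT3, known as CHOP, a factor of the integrated stress response that can induce autophagy genes, had 10.8, 10.8 and 10.1 FPKM in PAL, against 23.1, 24.5 and 29.1 FPKM in control, without overlap (log2 difference -1.20 ± 0.08 (SE), adjusted p = 0.000142). FOXO4 averaged 2.55 ± 0.109 FPKM in PAL and 3.61 ± 0.169 FPKM in control, and FOXO1, at 0.737 ± 0.110 FPKM in PAL and 1.35 ± 0.337 FPKM in control, passed the filter through its control libraries only. HIF1A, the hypoxia factor, was the other one called lower, named after its value was seen. E2F1, a cell cycle factor, was higher, at 24.3 ± 1.43 FPKM in PAL and 19.7 ± 0.589 FPKM in control. Over the 5 lists 31 genes were called, with 18 called without PAL replicate 2 and 19 without PAL replicate 1 or control replicate 1.

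**Figure D5:**
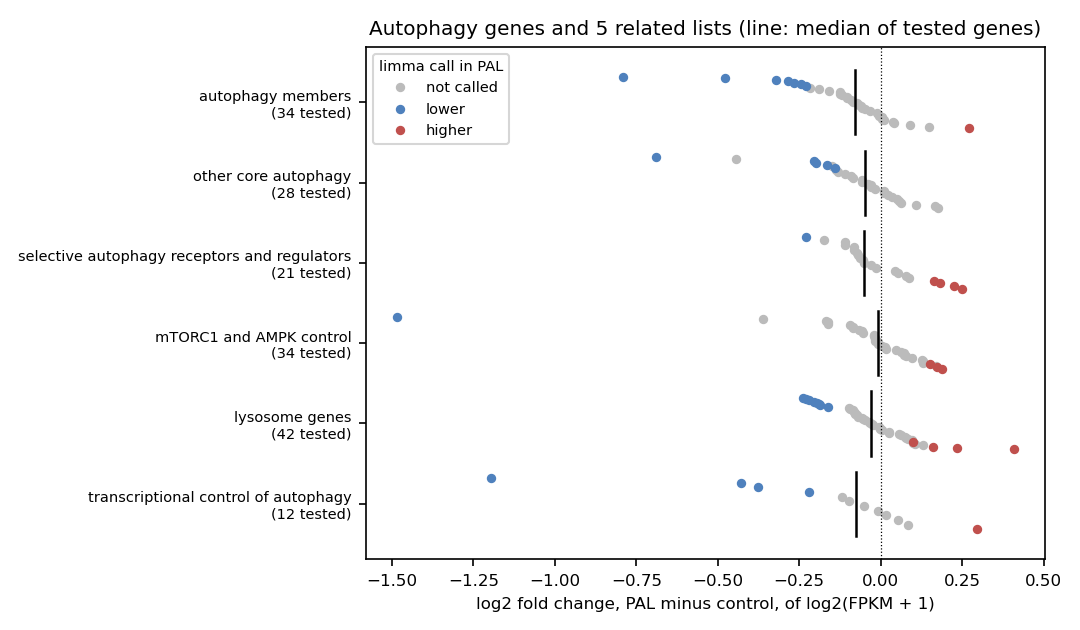
Log2 difference, PAL minus control, of each tested gene of the autophagy members and of 5 related lists, with a line at each median. The medians lie between -0.08 and -0.01, and SESN2 (-1.48) and DDIT3 (-1.20) stand far to the left of the other genes.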

How the data were processed

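RNA-seq was measured in 6 A375 libraries, 3 PAL and 3 control, grouped by sample title. Per the labels' protocols, RNA was column-purified and poly-A enriched, and the submitters' processing notes list hg38. The labels name no aligner, counter or strand setting. Of the 37 genes, 20 share exon bases with another gene. The largest shares are 55.7% in GABARAP, 38.8% in ATG9A, 28.1% in WIPI1 and 22.0% in SQSTM1, and how shared reads were counted is not given. The deposited FPKM values, per the file headers, come with gene length and position, which equal those of GENCODE 29. Each value corresponded to a whole number of reads within 0.01, so depth and reads were recovered. The library size behind the FPKM was 1.04 to 1.05 of the assigned total in PAL and 0.980 to 0.984 in control.

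Genes with at least 1 FPKM in at least 3 libraries were fitted with limma 3.58.1 (R 4.3.3) on log2(FPKM + 1), two-sided, with a variance trend, Benjamini-Hochberg adjustment and 4 residual degrees of freedom. The fit was also run on simulated data, and its power for small differences is not given here. Voom on recovered reads was one of 18 alternatives. Chi-square per degree of freedom of read counts was 1.97 to 3.99 within groups, so no libraries were duplicates. The members and lists were chosen with earlier results of these data known. Named are all members and, per list, up to 3 rises and 3 falls by size of the log2 difference; others are marked in the text. Promoters are from RefSeq (GRCh38.p14). RB1CC1, on chromosome 8, and ATG4D, MAP1LC3A and UVRAG are not among the promoters used, so no element count covers them. Figures were drawn with matplotlib 3.10.9.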

Additional observations from a re-analysis of the deposited data

How the results depend on the processing

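The numbers of autophagy genes called (8) and called lower (7) stayed within 1.5 times under all 18 alternatives, and no tested value of a called gene turned its sign. Genes called higher numbered 1 as reported, 0 with no filter, with no variance trend and with the replicate block, 2 with a mean of at least 5 FPKM, among protein-coding genes and without both libraries numbered 3, and 4 after scaling to TPM, after quantile normalization and with plain read totals. Leaving out 1 library gave 0 to 2. Over all genes 3179 calls became 2103 with no filter, 2131 with the replicate block, and 1855 to 2789 when 1 library was left out, the lowest without PAL replicate 2. The pathway lists had 31 calls, 20 with the replicate block and 18 to 25 when 1 library was left out. Same-numbered libraries did not deviate together (correlations -0.05 to 0.03), so the numbers were not taken to pair them, and the block ended the calls of ATG10 and OPTN. The cause of these shifts was not tested. With a library left out, its group has 2 libraries. Low read numbers, 12 to 51 per library, limit what can be said of ULK2, GABARAP and TFEB. Other genes share 55.7% of the exon bases of GABARAP, and the part of this in its low count was not tested. The direction of small differences depends on the scaling: the sign of 6 genes not called turned with TPM, 3 with quantile normalization and 7 with plain totals.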
